A study of Homo sapiens with 10 samples.

Results

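SAM and Suntag are ways of bringing several activation domains to one promoter, and the comparison described here sets the transcripts of cells given SAM against those of cells given Suntag. It holds 4 libraries of the 10 in the series, 2 labelled SAM and 2 labelled Suntag, chosen by their sample titles. All clusters listed for these libraries, 31848, were taken into the comparison, and 13241 of them had enough counts to be tested. The libraries are poly(A)-selected RNA from HEK293T, a human embryonic kidney line that is readily transfected and keeps few traits of a differentiated kidney cell. The SAM cells were transfected with a SAM activator and the Suntag cells with a Suntag activator, in both cases with a guide RNA directed at HBG1, a fetal globin gene of the red cell lineage. The same fit also holds 2 libraries each of cells given a VP64 activator with that guide, of cells given a VPR activator with that guide, and of a guide-only control. The labels name no time after transfection, no plasmid dose and no second target. Whether the 2 libraries of a group are separate cultures is not stated either. The p-values below are therefore measured against a spread between libraries that could be purely technical.

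Both systems start from catalytically dead Cas9, which binds DNA where its guide RNA pairs with it but does not cut. In SAM as generally built, the dead Cas9 carries VP64, and hairpins added to the guide RNA are bound by a phage coat protein fused to activation domains of the human factors p65 and HSF1. In Suntag as generally built, the dead Cas9 carries an array of short peptides, and each peptide is bound by a single-chain antibody fused to VP64. SAM therefore adds domains of 2 human transcription factors, one of the NF-kB pathway and one of the heat shock response, while Suntag repeats 1 domain of viral origin. In transfected cells the expressed parts of either system are themselves messenger RNAs, and reads from a human sequence carried by a plasmid cannot be told from reads of the human gene.

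The files identify transcripts by cluster number and transcript identifier, with no gene names beside them. Of 82960 transcript identifiers, 3 were found in the gene tables at hand, in 3 clusters, and 0 of those clusters passed the test between SAM and Suntag. HBG1, RELA and HSF1, and the globin, heat shock, NF-kB, interferon and HEK293T marker lists, were therefore not tested. Clusters are described by their number of transcripts, their transcript length and their levels, and 4 are given by number. A level in CPM is a cluster's expected count as a share of the library's summed expected counts. TPM also takes transcript length into account and is given where levels are compared per length. Classes and orders of abundance are by CPM, which grows with transcript length as well as with the number of transcripts.

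The SAM libraries summed to 3434486 and 4435296 expected counts and the Suntag libraries to 5734411 and 5580553, and the tested clusters held at least 99.76% of them. Replicate libraries differed by more than sampling, with a chi-square per cluster of 2.27 in SAM and 6.14 in Suntag, where sampling alone gives about 1. This measure grows with depth. The median size of the log2 difference between the 2 libraries was 0.15 in SAM and 0.18 in Suntag, and the SD of that difference was 0.49 in SAM and 0.47 in Suntag. The fragment length implied by the difference between transcript length and effective length was 116 and 97.5 nt in the SAM libraries and 96.6 and 89.8 nt in the Suntag libraries. Because cells were sequenced in bulk, a change in the RNA of each cell cannot be told apart from a change in the number of cells that hold it.

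The comparison asks which transcripts differ between cells that carry one activator system and cells that carry the other, with the same target and the same cell line. SAM cells and Suntag cells differed in 228 of the 13241 tested clusters, 1.72% of them, at an adjusted p of 0.05 by edgeR's quasi-likelihood test. Of these, 95 were higher in SAM than in Suntag, 0.717% of tested clusters, and 133 were lower, 1%. Higher clusters differed by more, and they were also less abundant, with a median of 28.2 CPM against 139 CPM. Their median log2 difference, SAM minus Suntag, was 0.67, against -0.49 for lower clusters and -0.01 over all tested clusters. Setting clusters at 0 counts in one group to a floor of 3 counts could not move these medians, because those clusters stay far beyond them. Differences of at least 2-fold were found in 40 clusters, 0.302% of those tested, and 34 of these 40 were higher in SAM while 6 were lower. They take in all calls under 10 CPM, 23 higher and 4 lower, and some of those ended when summed with another cluster. A further 28 higher and 40 lower clusters differed by 1.5-fold to 2-fold, and 33 higher and 87 lower clusters by less than 1.5-fold. These counts rest on single libraries: 3 clusters were called without SAM replicate 1, 28 without SAM replicate 2, 622 without Suntag replicate 1, 76 without Suntag replicate 2 and 64 without either VP64 library. The signs of all 228 differences were the same in each of these fits, but this outcome was largely fixed in advance. In all 228 clusters both SAM libraries already lay on one side of both Suntag libraries in CPM.

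The balance of directions depended on the scaling. With TMM factors, 41.7% of called clusters were higher in SAM. With library totals alone, 163 clusters were called higher and 56 lower, 74.4% higher, and the median over all clusters moved to 0.05 on the log2 scale. All 228 called clusters kept their sign under that scaling, which their separation in CPM all but fixes, and 151 of them were still called.

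In all 228 called clusters, both SAM libraries lay on one side of both Suntag libraries in CPM. The same was true of 47.8% of all tested clusters, so separation of the 4 libraries says little on its own. The plot of difference by abundance shows where the calls lie.

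**Figure D1:**
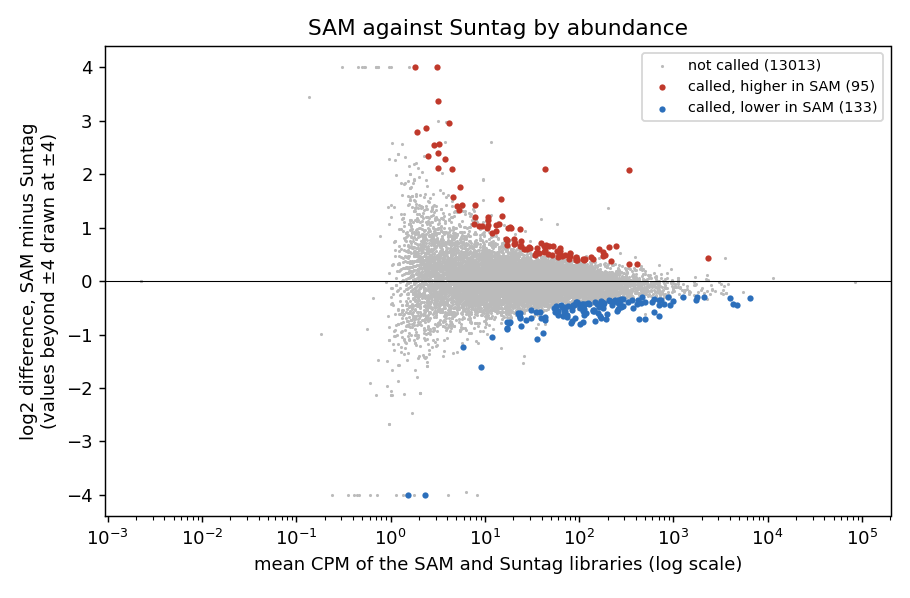
Each point is a tested cluster, at its mean CPM over the 4 SAM and Suntag libraries (x axis, log scale) and its log2 difference, SAM minus Suntag (y axis). Red points are the 95 clusters called higher in SAM and blue points the 133 called lower. Red points have a median of 28.2 CPM and blue points one of 139 CPM, and called points more than 2 from 0 lie under 10 CPM, apart from clusters 4232 and 29063.

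Cluster 4232, with 4 transcripts, had the largest difference among called clusters with a mean of at least 10 CPM. Its length averaged 870 nt over all 10 libraries, and it was 784 and 829 nt in SAM and 802 and 833 nt in Suntag. Reads numbered 260 and 295 for SAM and 106 and 73 for Suntag, and these expected counts were whole numbers in all 10 libraries. Its level was 75.7 and 66.5 CPM in SAM and 18.5 and 13.1 CPM in Suntag. Both SAM libraries were thus far above both Suntag libraries. From summed counts, SAM was 4.46-fold above Suntag, with a 95% exact Poisson interval of 3.76 to 5.31 that covers counting error only. The log2 difference was 2.10 ± 0.22 (SE), with an edgeR adjusted p = 0.000513, and the call held with any 1 library left out. In this cluster Suntag itself also stood far above VP64 and the guide-only control. The libraries given VPR had 17.4 and 10.1 CPM, close to Suntag, those given VP64 had 0 and 0 CPM, and those of the guide-only control had 0 and 0.494 CPM. Per length, its level was 236 and 186 TPM in SAM and 52.5 and 36.3 TPM in Suntag.

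Cluster 29063, with 2 transcripts and a length of 2153 nt, differed by nearly the same amount from a higher level. It had 598 and 495 CPM in SAM and 109 and 140 CPM in Suntag. The ratio of summed counts was 4.35, with an interval of 4.09 to 4.62. Its log2 difference was 2.07 ± 0.11 (SE), with an edgeR adjusted p = 9.06e-08, the smallest in the comparison. Unlike cluster 4232, it was not set apart in Suntag, since the libraries of VP64, VPR and the guide-only control ran from 101 to 127 CPM. Per length, SAM had 609 and 490 TPM and Suntag 105 and 139 TPM, so in SAM this cluster was the more abundant of the pair per transcript. Its counts were not whole, as happens when reads are divided between clusters. Added to the cluster listed after it, with which its counts came nearer to whole numbers, the level was 624 and 528 CPM in SAM and 143 and 173 CPM in Suntag. The summed log2 difference was 1.80, with an edgeR adjusted p = 1.58e-07.

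**Figure D2:**
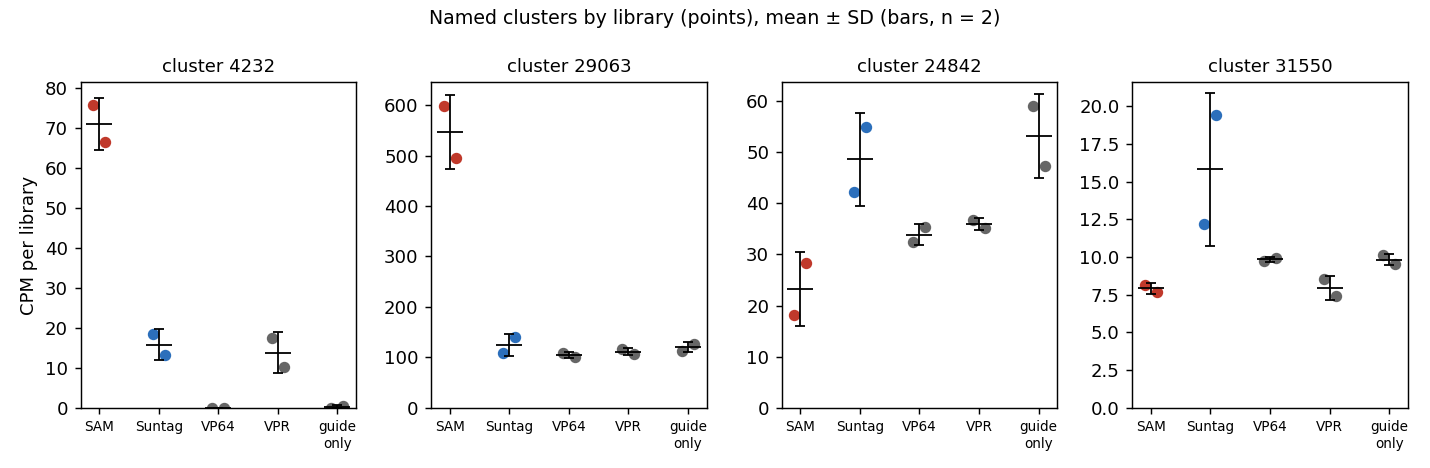
CPM (y axis, from 0) of the 4 numbered clusters in each library (points) with the group mean and SD (bars, n = 2), by group (x axis). Clusters 4232 and 29063 are highest in SAM, with Suntag at 13.1 to 18.5 and 109 to 140 CPM. Cluster 24842 is lowest in SAM at 18.1 and 28.4 CPM, and cluster 31550 is set apart by the Suntag libraries at 12.2 and 19.4 CPM.

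The next clusters in the ranking were lower in abundance and further apart in length. The third, a single transcript of 8290 nt with whole counts, had 23.3 and 21.2 CPM in SAM and 9.24 and 5.38 CPM in Suntag. Its log2 difference was 1.53 ± 0.22 (SE), with an edgeR adjusted p = 0.0043, and 0.0715 without SAM replicate 1. The fourth, with 6 transcripts of 2025 nt and whole counts, had 21.3 and 21.9 CPM in SAM and 7.85 and 10.0 CPM in Suntag, a log2 difference of 1.21 whose edgeR adjusted p was 0.0043 and lay at 0.0566 and 0.0548 without either SAM library. Both were also near the Suntag level in the remaining groups, at 7.74 to 8.91 CPM for the third and 9.01 to 10.9 CPM for the fourth. Ranks 3 to 12 together had log2 differences of 0.99 to 1.53 and lengths of 1515 to 12844 nt, and 5 of these 10 had whole counts. Their group means were 14.3 to 25.2 CPM in SAM and 6.37 to 11.8 CPM in Suntag.

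After clusters 29063 and 4232, the higher cluster with the smallest p had 3 transcripts and a length of 1533 nt. Its level was 314 and 293 CPM in SAM and 187 and 182 CPM in Suntag, a log2 difference of 0.66 ± 0.083 (SE) with an edgeR adjusted p = 0.00187. The libraries of the remaining groups had 166 to 187 CPM, which takes in the Suntag range. Over 1000 CPM, 1 cluster was called higher, with 6 transcripts and a length of 2133 nt. It had 2720 and 2690 CPM in SAM and 2120 and 1730 CPM in Suntag, a log2 difference of 0.43 (edgeR adjusted p = 0.0432).

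Among clusters with a mean of at least 10 CPM, those called lower in SAM had log2 differences no further from 0 than -1.09. Cluster 24842, with 3 transcripts and a length of 2055 nt, led them with 18.1 and 28.4 CPM in SAM and 42.2 and 55.0 CPM in Suntag. Its log2 difference was -1.09 ± 0.18 (SE), with an edgeR adjusted p = 0.012. The SAM level was also under that of VP64, at 32.5 and 35.3 CPM, of VPR, at 36.8 and 35.2 CPM, and of the guide-only control, at 59.0 and 47.4 CPM. Its call ended without SAM replicate 1, at an edgeR adjusted p = 0.155, and without Suntag replicate 2, at 0.054. Its counts were not whole.

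Cluster 31550, with 2 transcripts, a length of 1980 nt and whole counts, held 28 and 34 counts in SAM and 70 and 108 in Suntag. Its level was 8.15 and 7.67 CPM in SAM and 12.2 and 19.4 CPM in Suntag, a log2 difference of -1.05 ± 0.23 (SE) with an edgeR adjusted p = 0.0361. Here Suntag, not SAM, was the group that stood apart, because the remaining libraries had 7.38 to 10.1 CPM and so took in the SAM range. Without Suntag replicate 2 the log2 difference was -0.71 and the call ended, at an edgeR adjusted p = 0.19. It also ended without either SAM library, without either VP64 library, in a fit of the 4 libraries alone and with the effective length offset, at log2 differences of -1.10 to -1.02.

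Ranks 3 to 12 of the lower clusters had log2 differences of -0.97 to -0.76 and lengths of 777 to 4467 nt, and 2 of these 10 had whole counts. The third, with 4 transcripts of 2958 nt, had 28.9 and 29.3 CPM in SAM and 53.5 and 55.9 CPM in Suntag, with an edgeR adjusted p = 0.0019, and 0.0566 without SAM replicate 1. The fourth, with 3 transcripts of 4467 nt, was called only when taken by itself. Alone its log2 difference was -0.90, but added to the cluster listed after it the difference was -0.11, with 139 and 140 CPM in SAM and 140 and 150 CPM in Suntag and an edgeR adjusted p = 0.546.

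**Figure D3:**
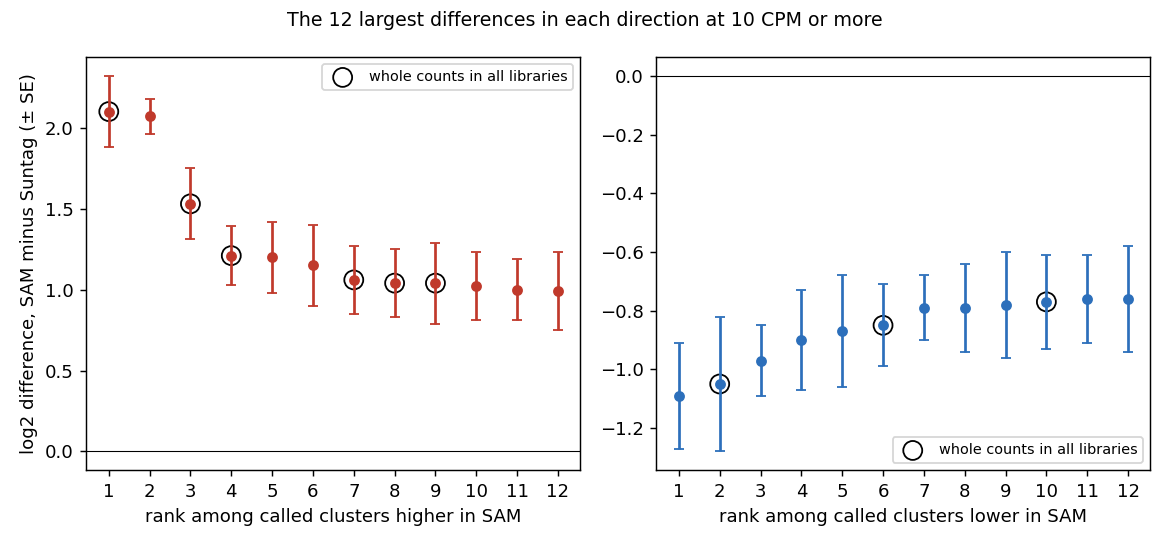
Log2 difference, SAM minus Suntag, with its SE (y axis) for the 12 largest called differences in each direction among clusters with a mean of at least 10 CPM (x axis, rank). Open rings mark clusters with whole counts in all 10 libraries. The first 2 higher clusters stand near 2.1, the other 10 between 0.99 and 1.53, and the lower clusters run from -1.09 to -0.76.

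The lower clusters with the smallest p were moderately abundant and differed by about 1.5-fold to 1.7-fold. One with 5 transcripts and a length of 1970 nt had 335 and 332 CPM in SAM and 512 and 529 CPM in Suntag, a log2 difference of -0.70 ± 0.076 (SE) with an edgeR adjusted p = 0.000513. The libraries of the remaining groups had 508 to 596 CPM, so that SAM was the group apart. One of a single transcript of 2136 nt had 534 and 582 CPM in SAM and 814 and 866 CPM in Suntag, a log2 difference of -0.65 ± 0.075 (SE) with an edgeR adjusted p = 0.000862. Another of 3 transcripts and 3249 nt had 111 and 116 CPM in SAM and 190 and 176 CPM in Suntag, a log2 difference of -0.75. In each of these the SAM libraries stood well below both Suntag libraries, with gaps larger than the spread within either group. Clusters chosen by smallest p from these same libraries will tend to have such gaps.

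The called cluster with the most counts was also lower in SAM. With 3 transcripts and a length of 943 nt, it had 5820 and 6030 CPM in SAM and 6620 and 7640 CPM in Suntag, a log2 difference of -0.33 ± 0.071 (SE) with an edgeR adjusted p = 0.035. Next by counts came a cluster of 3 transcripts and 1383 nt with 3970 and 4290 CPM in SAM and 5180 and 5680 CPM in Suntag, and one of 4 transcripts and 1985 nt with 3750 and 3720 CPM in SAM and 4390 and 5290 CPM in Suntag. Their log2 differences were -0.45 and -0.43, with edgeR adjusted p = 0.0143 and 0.00963. None of these 3 clusters had whole counts.

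Abundance and length divided the 2 directions. Clusters called higher had a median level of 28.2 CPM, near the 27.4 CPM of all tested clusters, whereas clusters called lower had a median of 139 CPM. Of clusters over 1000 CPM, 11.4% were called lower and 1.43% higher. Between 100 and 1000 CPM, 3.81% were called lower and 0.772% higher. Under 10 CPM the order turned, with 0.116% called lower and 0.67% higher. The median log2 difference over all tested clusters was 0.08 under 10 CPM, -0.01 from 10 to 100 CPM, -0.06 from 100 to 1000 CPM and -0.15 over 1000 CPM. With library totals only, it was 0 from 100 to 1000 CPM and -0.09 over 1000 CPM. The median over 1000 CPM was also -0.09 without Suntag replicate 1, and it was -0.22 without Suntag replicate 2. The precision rose along the same scale, with a median SE of 0.38 under 10 CPM and 0.08 over 1000 CPM, and so small differences could pass the test only at high levels.

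Clusters called higher had a median transcript length of 3474 nt and clusters called lower one of 2055 nt, against 2871 nt over all tested clusters. Of 1742 clusters between 700 and 1500 nt, 3 were higher in SAM and 34 lower. Of 4991 clusters between 1500 and 3000 nt, 35 were higher and 65 lower. Of 6260 clusters over 3000 nt, 57 were higher and 33 lower, and under 700 nt the counts were 0 and 1 of 248. The median log2 difference was -0.09 between 700 and 1500 nt and 0.04 over 3000 nt.

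Calls varied with length within an abundance class and with abundance within a length class. Among clusters of 100 to 1000 CPM, 8.62% of those between 700 and 1500 nt and 1.64% of those over 3000 nt were called lower. Among clusters over 3000 nt, lower calls came to 1.64% at 100 to 1000 CPM and 0.371% at 10 to 100 CPM.

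These shifts were not even between libraries. Relative to all 10 libraries, the median level of clusters over 1000 CPM was -0.20 and -0.11 (log2) in the SAM libraries and 0.08 and -0.05 in the Suntag libraries. The level of short against long clusters, given as a log2 difference, was -0.20 and 0 in SAM and 0.14 and -0.10 in Suntag, so the groups overlap on that measure. The implied fragment length averaged 107 ± 13.1 nt in SAM and 93.2 ± 4.82 nt in Suntag (SD, n = 2 each), and its part in the length pattern was not tested. With each library's trend on transcript length removed, 89 clusters were called higher and 102 lower.

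**Figure D4:**
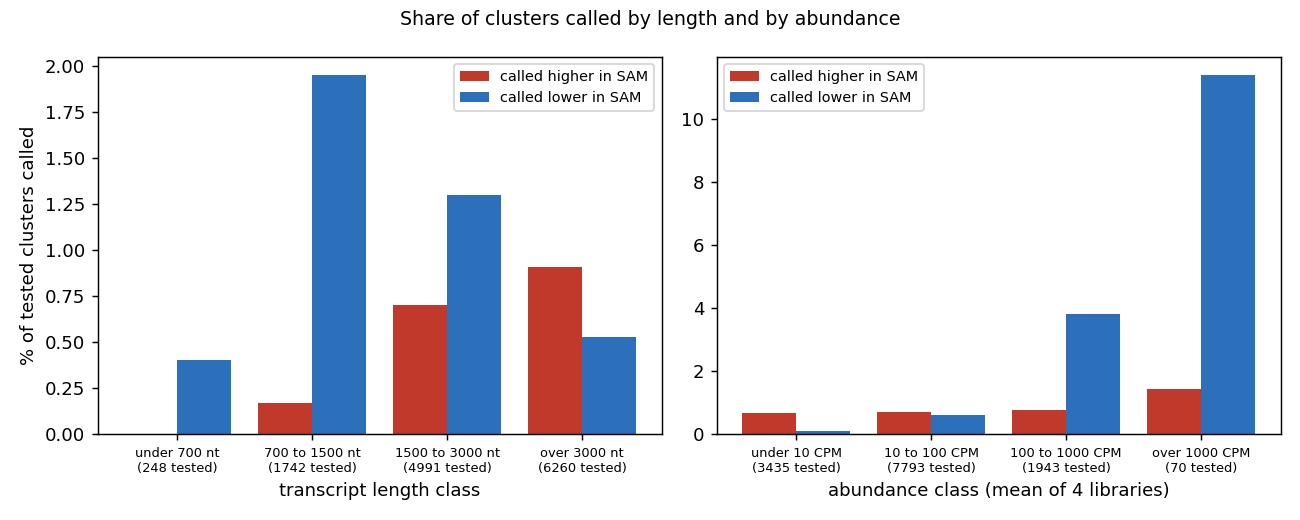
Percent of tested clusters called higher (red) or lower (blue) in SAM than in Suntag (y axis, from 0) by transcript length class and by abundance class (x axes, with the number tested). Lower calls peak at 1.95% between 700 and 1500 nt and at 11.4% over 1000 CPM, while higher calls reach 0.911% among lengths over 3000 nt and 1.43% over 1000 CPM.

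The remaining 6 libraries give levels to set beside those of SAM and Suntag. For each called cluster, the mean of VP64, VPR and the guide-only control lay nearer to Suntag than to SAM in 78 of 95 higher clusters, 82.1%, and in 99 of 133 lower clusters, 74.4%. Over all tested clusters the mean lay nearer to Suntag in 59.8%. SAM was the highest of the 5 groups in 89 of the 95 higher clusters and the lowest in 122 of the 133 lower clusters, and Suntag was the opposite extreme in 54 and 73 of them. Over all tested clusters SAM was the highest in 25.5% and the lowest in 25.1%. Suntag was the lowest in 2125 and the highest in 2401 of the 13241. Clusters were called on the SAM and Suntag values themselves, so these extremes and the shares nearer to Suntag are a description.

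The median log2 level of the 95 higher clusters, relative to the mean of VP64, VPR and the guide-only control, was 0.58 and 0.54 in the SAM libraries, -0.16 and -0.18 in the Suntag libraries and -0.09 to 0.05 in the rest. For the 133 lower clusters it was -0.38 and -0.36 in SAM, 0.10 and 0.18 in Suntag and -0.04 to 0.03 in the rest. Both sets were chosen on the difference between SAM and Suntag, so the distance between these groups is a description. The higher clusters held 0.962% and 0.916% of all counts in SAM and 0.627% and 0.59% in Suntag. The lower clusters held 4.41% and 4.55% in SAM and 5.44% and 5.99% in Suntag.

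**Figure D5:**
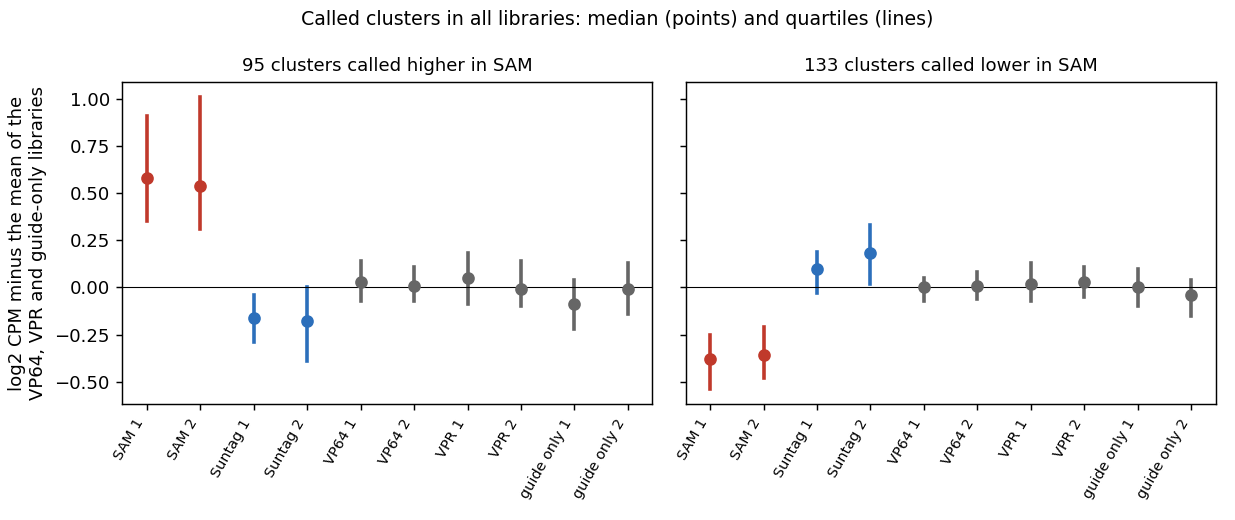
Median (points) and quartiles (lines) of log2 CPM minus the mean of the VP64, VPR and guide-only libraries (y axis), per library (x axis), for the clusters called higher and lower in SAM. SAM lies at 0.58 and 0.54 in the first set and at -0.38 and -0.36 in the second, and Suntag lies at -0.16 and -0.18 and at 0.10 and 0.18.

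Under 10 CPM, 27 clusters were called, 23 higher and 4 lower in SAM, and 13 of them had whole counts. Apart from those at 0 in one group, the 21 higher ones summed to 26 to 100 counts over the SAM libraries and 5 to 67 over the Suntag libraries. Their ratios ran from 2.11 to 10.8, and for 12 of them the lower end of the 95% exact Poisson interval was over 2. That interval covers counting error only, and the clusters were called on these same counts. Summed with a list neighbour, the ratio went from 8.62 to 1.27 in one of 1882 nt. In one of 7897 nt it went from 2.11 to 2.04. One with whole counts, 3 transcripts and a length of 2116 nt held 16 and 23 counts in SAM and 5 and 4 in Suntag, a ratio of 6.23 (2.97 to 14.6). Another with whole counts, 2 transcripts and 2964 nt held 18 and 33 counts in SAM and 5 and 9 in Suntag, a ratio of 5.24 (2.86 to 10.2). All of these rest on few counts, so the size of each ratio is loosely known.

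Called clusters at 0 counts in one group are given separately, because reads divided between similar transcripts can produce them. There were 4, with 0 counts in Suntag in 2 of them and 0 counts in SAM in the other 2, and none had whole counts. Set against a floor of 3 counts over the group at 0, the 2 absent from Suntag were at least 22.5-fold and at least 13.9-fold higher in SAM, and the 2 absent from SAM were at least 12.1-fold and at least 8.11-fold lower.

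For 3 of the 4, another cluster made up the difference. A cluster of 6921 nt had 0 and 0 counts in SAM and 29.5 and 22.5 in Suntag. A cluster of 6904 nt, also with 4 transcripts, had 39.4 and 48.0 counts in SAM and the same 29.5 and 22.5 in Suntag, equal to within 0.01, and was itself called higher in SAM. Summed, the pair had 11.5 and 10.8 CPM in SAM and 10.3 and 8.06 CPM in Suntag, a ratio of 1.21 (0.894 to 1.61), so the 2 opposite calls cancel. The cluster absent from Suntag with the larger ratio to the floor, of 6806 nt, was summed with 2 clusters of 6807 nt. The sum had 10.0 and 7.22 CPM in SAM and 8 and 6.67 CPM in Suntag, a ratio of 1.15 (0.815 to 1.60). The other cluster absent from SAM, of 2210 nt, was added to the cluster beside it in the list and gave 6.99 and 7.44 CPM in SAM and 6.63 and 6.27 CPM in Suntag, a ratio of 1.12 (0.78 to 1.61). No such partner was found for the cluster of 2847 nt with 0 counts in Suntag, which held 11.5 and 17.5 counts in SAM.

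Whether divided reads account for these calls was not tested, and the summed counts of the first 2 sets were still not whole. Of the 228 called clusters, 196 did not have whole counts, and whole counts were found in 14% of called against 20.3% of tested clusters. A list neighbour that brought the counts nearer to whole numbers was found for 8 of the 196. After summing, 3 of these 8 were still called, 5 were not, and 1 changed sign. Adding a more abundant cluster that does not differ brings any difference nearer to 0, so a lost call does not show divided reads. The one that changed sign was the cluster of 2210 nt with 0 counts in SAM, given above. In a single-transcript cluster of 1882 nt the log2 difference was 2.96 alone and 0.29 summed, with an edgeR adjusted p = 0.425. Among the 2691 tested clusters with whole counts, 24 were called higher in SAM and 8 lower. Over all tested clusters the shares called were 0.717% higher and 1% lower. A fit of whole-count clusters only called 54 higher and 39 lower, so the balance of directions among them depended on the fit.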

How the data were processed

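Libraries of HEK293T poly(A) RNA were made, per the labels' protocols, with random-hexamer priming and tagmentation, which carries no strand information, so reads of overlapping and antisense genes are mixed. For every library the authors deposited a table made with RSEM 1.2.1 and the hg19 build, per the submitters' processing notes. Which transcript annotation was used is not stated in those notes. According to the column names, per the file headers, a table holds for every cluster the expected count, an estimated count that need not be whole, the TPM, a transcript length and an effective length, which is about the length less the mean fragment length. The deposited FPKM was not used.

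After rounding, expected counts went through filterByExpr, TMM scaling and the quasi-likelihood F test of edgeR 4.0.16 under R 4.3.3. The fit took in the 10 libraries with 5 group coefficients, which left 5 residual degrees of freedom. Benjamini-Hochberg adjustment ran over 13241 clusters, with a threshold of 0.05. Simulated data were used to check the script. With 2 libraries on each side, 0.333 is the smallest p that a two-sided permutation could reach. The SE was taken as log2 difference over the square root of F. A count was called whole within 0.01.

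Clusters are ranked by log2 difference in each direction, among those called, with a mean of at least 10 CPM over the 4 libraries and with both SAM libraries on the same side of both Suntag libraries. The first 2 are given by number and ranks 3 to 12 without. Clusters of smallest p and of most counts are described too, and those of under 10 CPM are summarised with examples, chosen after their values were seen. The comparison, lists and length classes were chosen with earlier results of these data known. The alternatives were RLE factors, library totals only, no filter on low counts, the 4 libraries alone, DESeq2 1.42.0, a block on the replicate number, the removal of each library, a length trend or effective length offset, whole-count clusters only, and a 2-fold minimum. A numbered or ranked cluster was also summed with a list neighbour where that brought its counts nearer to whole numbers. The rules for finding such neighbours, the sums of other clusters and the classes of abundance under these settings were chosen after seeing the data.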

Additional observations from a re-analysis of the deposited data

How the results depend on the processing

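All 228 called clusters kept the sign of their difference in every alternative fit below in which they were tested, but many calls did not hold. The separation of the SAM and Suntag libraries in CPM, shared by all 228, largely fixed these signs. Summing with a list neighbour, run for 8 called clusters, changed the sign of 1, from -7.00 alone to 0.10. Without the filter on low counts 857 clusters were called, 302 higher and 555 lower. The 4 libraries alone gave 61 calls, 29 and 32, with 2 residual degrees of freedom. The effective length offset gave 134 calls, 55 and 79. Whole-count clusters only gave 93 calls, 54 and 39, of 2642 tested. Library totals only gave 219 calls, 163 higher and 56 lower, and DESeq2 gave 234, 55 higher and 179 lower. Of the 228 calls, 99 had no adjusted p in DESeq2. The 2-fold minimum left 40 calls. RLE factors and removal of the length trend kept all 3 counts within 1.5 times.

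With the replicate block, 149 clusters were called, 63 higher and 86 lower. No pairing by number was seen over the clusters as a whole. Over the 10 pairs of groups the correlation of deviations of same-numbered libraries ran from -0.071 to 0.072. Such a measure cannot exclude pairing that touches few clusters, and the labels do not say what the number means. Leaving out 1 library in turn gave 3 to 622 calls, 2 to 255 higher and 1 to 367 lower. The lowest counts came without SAM replicate 1 and the highest without Suntag replicate 1. Without SAM replicate 2 there were 28 calls, without Suntag replicate 2 there were 76, and without either VP64 library 64. A fit that leaves 1 SAM or Suntag library assumes that it varies like the other groups. In all 10 of these fits 3 calls held: clusters 4232 and 29063 and the lower cluster of 1970 nt. The cause was not tested for any of these changes. For the 24 ranked clusters, 303 of 423 recomputed differences were still called and none turned direction. Those 423 leave out settings in which a cluster was not tested or had no adjusted p. DESeq2 gave no adjusted p for most ranked clusters, clusters 4232, 24842 and 31550 among them. With 1 library left out, the direction of a ranked cluster was all but fixed. Ranking required both SAM libraries on the same side of both Suntag libraries. The median of clusters over 3000 nt was 0.10 with library totals only and 0.01 with the length trend removed.

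Depth limits the clusters under 10 CPM most, with a median SE of 0.38, so that differences there were detectable only when large.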

Other observations

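The files also give a transcript length per cluster and library that is weighted by the isoforms RSEM assigned reads to, and this measure was not used in the comparison. Among 8162 clusters with at least 2 transcripts and 10 CPM, the weighted length was at least 20% longer in SAM than in Suntag, with no overlap between the libraries, in 50 clusters and at least 20% shorter in 30. Of the clusters called higher in SAM, 62 were in this set, and 0 of them were longer by that measure and 1 was shorter. Of the clusters called lower, 100 were in this set, and 0 were longer and 0 shorter. The weighted length of one cluster with 9 transcripts, which was not called, was 7119 and 6454 nt in SAM and 5909 and 4651 nt in Suntag. In another with 5 transcripts, also not called, it was 5319 and 5906 nt in SAM and 6336 and 7060 nt in Suntag. That shift fell short of 20%, so this cluster is not among the 30. These are values without a test, and isoform assignments from short fragments carry an error that the files do not give.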
